A study of Mus musculus with 4 samples.

Results

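Estradiol on a dexamethasone background was examined by setting the open chromatin of cells given both hormones against that of cells given dexamethasone alone. The cells were 7438 cells, a mouse mammary line in which a GFP-tagged glucocorticoid receptor (GFP-GR) and a Cherry-tagged estrogen receptor (Cherry-ER) are made from a tetracycline-regulated promoter. DNase-seq, which reads the positions where the nuclease DNase I cuts accessible DNA, gave 1 library for each of 4 conditions. Dex cells received 100 nM dexamethasone, E2 cells 100 nM estradiol and Dex+E2 cells both hormones at 100 nM each, all for 30 min, and untreated cells received no hormone. All 4 groups, untreated cells included, had tetracycline withdrawn 24 h earlier, the step that switches on both tagged receptors. The comparison took all 51251 regions listed with Dex alone and all 50061 listed with both hormones, which is 101312 of the 202687 regions in the series. With 1 library per condition there is no replicate check, no p-value was computed, and each difference describes a pair of libraries.

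Dexamethasone is a synthetic ligand of GR and estradiol a natural ligand of ER. Both receptors are nuclear receptors that bind DNA after taking up their ligand and recruit coactivators and chromatin remodellers, and a DNase I hypersensitive site marks a place where nucleosomes have been displaced. GR and ER recognise different response elements, and each is known to bind both chromatin that is already open and chromatin that opens with its binding. Regions are named by their mm9 position as deposited. The genes and sequence motifs at these regions, and marker genes of the mammary lineage, were not analysed here.

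Each listed region carries a maximum tag density at its summit and an average tag density over its width, both scaled per library by the authors. If the scaling total was the same for all libraries, the Dex+E2 library was 1.08 times as deep as the Dex library. A median region had 32 tags at its summit with Dex and 36 with both hormones. Intervals on densities are exact Poisson 95% intervals on summit tags, intervals on fold values are exact conditional binomial ones, and intervals on shares are Wilson 95% intervals. All of them cover counting error only.

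Most regions listed in one library and not in the other were weak, and the dense ones lay almost all on the side of Dex+E2. Of the Dex+E2 regions, 38.2% had no overlap of 1 bp or more with a Dex region (gained regions, n = 19103). Of the Dex regions, 41.3% had no Dex+E2 counterpart (lost regions, n = 21167). Gained regions had a median maximum density of 5.67 and a median width of 371 bp, and lost regions 5.63 and 331 bp. The Dex+E2 regions that did overlap a Dex region were denser and wider, with medians of 11.8 and 657 bp. The authors' Z score of a region against the background of its own library was under 6 for 51.1% of gained and 56.7% of lost regions, against 7.87% of the shared Dex+E2 regions.

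The balance between gained and lost regions turned with density. Among regions with a maximum density under 5, 82.5% (81.7 to 83.4) of the Dex+E2 regions were gained and 87.4% (86.6 to 88.1) of the Dex regions were lost. Between 10 and 20 the order was the reverse, with 1198 gained regions (10.5%, 9.98 to 11.1) against 530 lost ones (4.73%, 4.35 to 5.14). At a density of 20 or more, 130 of 8103 Dex+E2 regions (1.60%, 1.35 to 1.90) were gained, while 1 of 7460 Dex regions was lost. Dense regions listed with Dex were thus listed again with both hormones, with that 1 exception. The class limits were set after the data were examined.

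**Figure D1:**
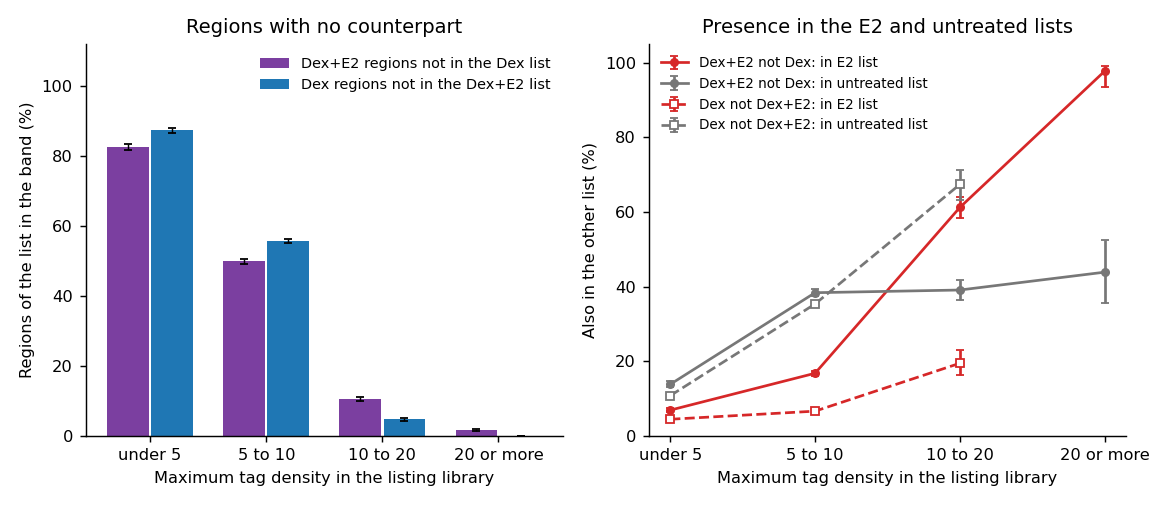
Left, share of the regions of each list (%) without a counterpart in the other list, by maximum tag density, with Wilson 95% intervals as bars on the columns. Right, share of those regions (%) that were also in the E2 list (red) or the untreated list (grey), with the same intervals; the single lost region at 20 or more is not drawn. Gained regions reach 97.7% in the E2 list in the densest class, while their share in the untreated list is 43.8%.

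Dense gained regions were in most cases also listed in cells given estradiol alone. Of the 130 gained regions at a density of 20 or more, 127 (97.7%, 93.4 to 99.2) were in the E2 list and 57 (43.8%, 35.6 to 52.4) in the untreated list. Shared Dex+E2 regions of that density stood at 97.1% in the E2 and 98.1% in the untreated list. The gained regions were thus close to them in their share of the E2 list, and below them in their share of the untreated list. For 71 gained regions (54.6%) E2 alone gave a listing and untreated cells did not, a pattern seen at 0.677% of the shared regions.

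Among the 56 dense gained regions in both of those lists, the deposited density was at least as high with E2 as in untreated cells at 44. Only 2 dense gained regions were in neither the E2 nor the untreated list, and 1 was in the untreated list alone.

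Between densities of 10 and 20, gained regions were more often in the E2 than in the untreated list, and lost regions the other way round. In this class 61.2% (58.4 to 63.9) of gained regions were in the E2 list and 39.1% (36.3 to 41.9) in the untreated list. Lost regions of that class were at 19.4% (16.3 to 23.0) in the E2 list and 67.4% (63.3 to 71.2) in the untreated list. A listing in untreated cells without one with E2 was found for 51.5% of these lost regions and for 11.6% of the gained ones. Shared Dex+E2 regions of that class were at 83.8% in the E2 and 94.8% in the untreated list, and shared Dex regions at 79.9% and 94.1%. Gained and lost regions were thus below shared ones in both lists. An untreated listing without an E2 one was found for 11.7% of those shared Dex+E2 and 14.8% of those shared Dex regions. The untreated list was the longer, with 65879 regions against 35496 with E2. In the largest class, 5 to 10, gained as well as lost regions were more often in the untreated than in the E2 list. There 16.8% of gained and 6.60% of lost regions were in the E2 list, and 38.3% and 35.3% in the untreated list. A listing in untreated cells without one with E2 was found there for 27.6% of gained and 30.5% of lost regions. Under a density of 5, 82.4% of gained and 86.8% of lost regions were in neither of the other lists. No test was made of these shares, because each list comes from 1 library.

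The gained region with the highest density, chr8:13506459-13507423, is 964 bp wide. Its density was 13.0 in untreated cells, 34.8 with E2 and 62.6 (55.4 to 70.5) with both hormones, and it had no entry with Dex. The next, chr11:117815254-117815924, stood at 20.9 untreated, 31.8 with E2 and 47.9 (41.6 to 54.8) with both hormones. In both cases the E2 library was above the untreated one as deposited, and the one with Dex alone fell short of the authors' threshold, which does not show that the site was closed there.

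A group of the 10 densest gained regions was absent from the untreated as well as the Dex list. On chromosome 12, chr12:16770996-16772312 had 10.2 with E2 and 47.0 (40.8 to 53.8) with both hormones. At chr15:101337375-101338278 the densities were 26.8 and 44.5, and at chr14:19549201-19550098 they were 21.6 and 43.6. These regions were in both lists of cells given estradiol and in neither of the others.

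Other regions of the 10 were already listed without hormone. At chr5:125655053-125656197 the density was 10.97 untreated, 27.0 with E2 and 41.7 with both hormones. The value with both hormones was the same 41.7 at chr12:17149486-17150376, with 8.67 untreated and 19.4 with E2, and at chr12:86970287-86971476, with 24.2 and 33.4. At chr11:57880116-57881069 the untreated and E2 libraries were close, at 24.7 and 25.6, and Dex+E2 reached 43.8. E2 was above untreated at each of these sites as deposited.

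The remaining region of the 10, chr11:3022057-3022489, differed from the others in its score. Its density of 44.0 with both hormones and 44.4 with E2 went with a Z score of 6.47, against 38.4 to 75.3 for the other regions of the 10. It lies in the stretch chr11:3022057-3166752, and with the stretch chr8:19523820-20033218 this holds 4 of the 130 dense gained regions, with Z scores of 5.58 to 7.91. The 126 dense gained regions elsewhere had Z scores of 15.3 to 75.3, and without these stretches the counts at a density of 20 or more were 126 gained and 0 lost. The stretches were drawn after the data were examined.

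The lost regions were led by members of the same stretches. The only one above 20, chr11:3038299-3038686, had 46.8 with Dex with a Z score of 5.55, and the next, chr8:19972267-19972686 and chr8:19895260-19895541, had 18.6 and 18.4 with Z scores of 6.81 and 6.46. Outside the stretches chr6:134509446-134510135 had 18.1 (14.2 to 22.7) with Dex with a Z score of 16.9 and was in no other list. The region chr2:177298614-177299092 was also at 18.1 with Dex, with 11.8 with E2. At chr16:30981204-30981987, named after its values were seen, the density was 18.9 untreated and 17.9 with Dex, with no entry in either library given estradiol.

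Regions of both lists that overlapped were merged, which gave 29657 shared sites, 28156 of them made of 1 region from each list. Densities at these sites were close between the libraries, with a median maximum density of 11.8 with Dex and 12.02 with both hormones and a median average density of 2.79 and 2.99. As deposited, the median log2 ratio of Dex+E2 to Dex was 0.00 for the maximum and 0.08 for the average density. Ratios below are divided by the library medians over the shared sites, and on this scale the SD over sites was 0.44 for the maximum and 0.49 for the average density.

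More shared sites passed the 2-fold limit on the higher than on the lower side, and those past 4-fold were higher in all but 1 case. The maximum density was at least 2-fold higher with both hormones at 519 sites, 1.75% of the shared sites, and at least 2-fold lower at 323, or 1.09%. Both measures passed the limit at 389 sites on the higher side (1.31%) and at 195 on the lower side (0.658%). At 4-fold there were 27 higher sites (0.091%) and 1 lower site, whereas at 1.5-fold the balance turned, with 2280 higher and 2443 lower. Of the 519 higher sites, the counting interval of the ratio lay wholly above 2-fold at 126, and of the 323 lower sites it lay wholly below the limit at 8.

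**Figure D2:**
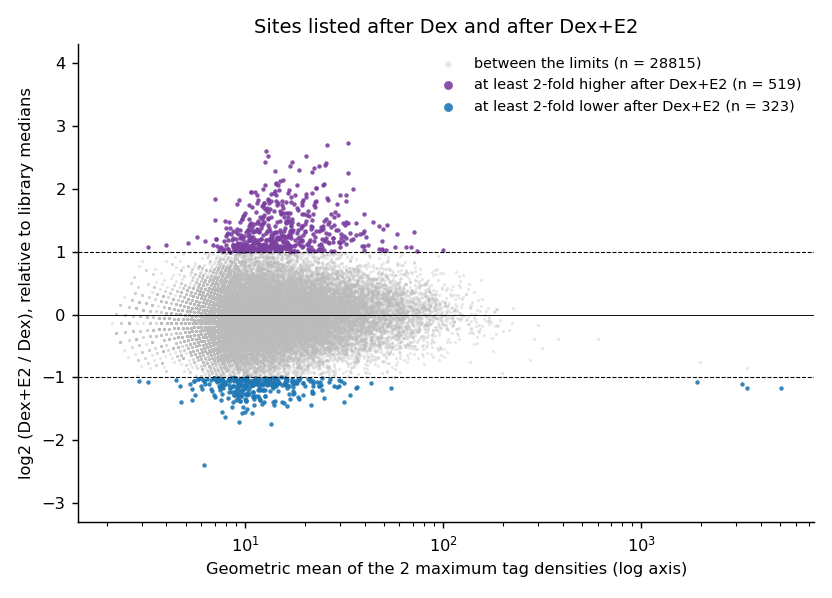
Each point is 1 of the 29657 shared sites, with the geometric mean of both maximum tag densities on a log axis and the log2 ratio of Dex+E2 to Dex relative to the library medians on the vertical axis; dashed lines mark the 2-fold limits. The higher sites (purple, n = 519) reach a log2 ratio of 2.73, and a few lower sites (blue, n = 323) sit at densities above 1000.

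Higher and lower sites were spread differently over the range of density. Of the 8897 sites with the lowest mean density, 36 were higher and 76 lower. Most called sites were among the 11863 of middle density, with 317 higher and 199 lower. Of the 8897 with the highest mean density, 166 were higher and 48 lower. A shared site had to be listed in both libraries, which limits the ratios that weak sites can show. The called regions changed in width in the same direction: higher sites had a median of 589 bp with Dex and 809 bp with both hormones, and lower sites 849 and 565 bp. Width and density come from the same tags and are not independent readouts. Over all shared sites the medians were 696 and 668 bp.

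The shared site that led the higher side, by the lower bound of its counting interval, was chr12:25408295-25409701. Its maximum density was 18.9 untreated, 12.7 with Dex, 45.2 with E2 and 86.4 with both hormones, and its average density was 2.61 with Dex and 17.8 with both. Relative to the medians it was 6.64-fold (4.96 to 9.05) higher with both hormones than with Dex. Of the libraries that the ranking did not use, E2 stood above untreated.

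On the same chromosome, chr12:16797067-16797819 was 6.45-fold (4.64 to 9.18) higher, with 9.44 untreated, 10.0 with Dex, 36.2 with E2 and 66.2 with both hormones. The site chr11:53128018-53128849 followed at 5.75-fold (3.99 to 8.52), with 6.89, 8.33, 20.6 and 49.0 in that order. At chr7:74606585-74607447 the densities were 13.5, 10.3, 26.4 and 54.2, which is 5.15-fold (3.70 to 7.34). The ranking used the Dex and Dex+E2 values, so these restate the choice of sites; in the libraries it did not use, E2 was above untreated at each of them.

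At chr15:77970345-77971201 the densities were 22.2 untreated, 11.02 with Dex, 41.0 with E2 and 59.7 with both hormones, or 5.29-fold (3.85 to 7.43). At chr13:3476997-3477750 they were 13.3, 5.14, 23.997 and 31.8 (6.04-fold, 3.80 to 10.1), and at chr3:104473769-104474644 13.3, 5.39, 19.6 and 31.5 (5.72-fold, 3.63 to 9.43). A lower deposited density with Dex than in untreated cells was common to the shared sites. Their median was 11.8 with Dex over all of them, and 23.97 untreated over the 27288 listed there.

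Sites with no untreated entry also appeared among the 10. At chr4:47510430-47511420 the density was 11.02 with Dex, 22.0 with E2 and 58.5 with both hormones (5.19-fold, 3.77 to 7.30). At chr1:92634551-92635398 it was 7.35, 15.4 and 40.4 (5.37-fold, 3.63 to 8.20), and the called width went from 251 bp with Dex to 847 bp. The last, chr11:100256055-100257851, is the exception in the E2 library: it had 19.9 untreated, 9.80 with Dex, 14.4 with E2 and 50.6 with both hormones (5.05-fold, 3.59 to 7.26). There the library given estradiol alone was below the untreated one as deposited, while relative to the library medians its log2 ratio to untreated was 1.11.

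**Figure D3:**
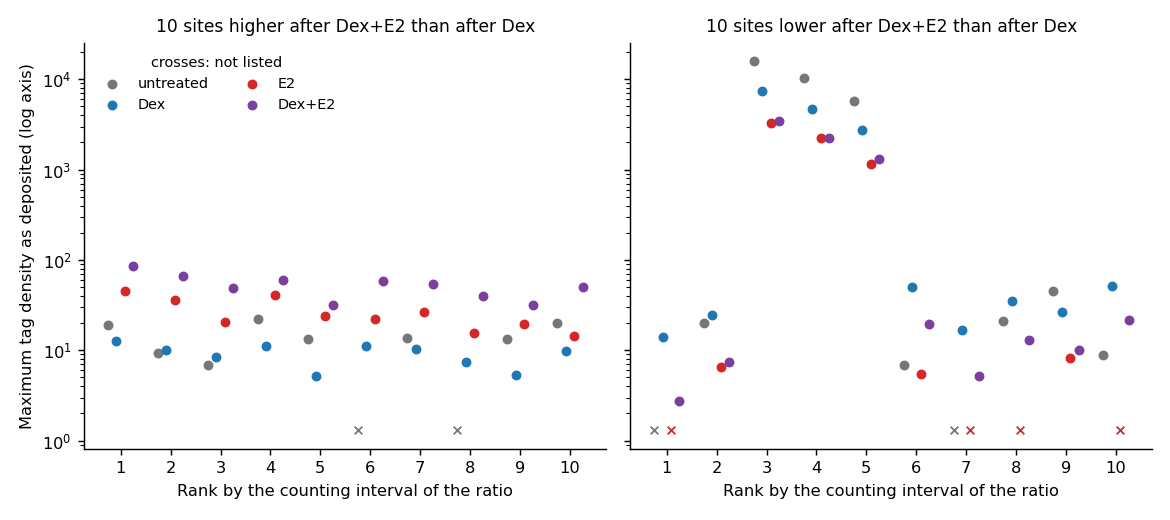
Maximum tag density as deposited (log axis) in the 4 libraries at the 10 leading sites that were higher (left) or lower (right) with both hormones than with Dex, ranked by the counting interval of the ratio; crosses mark libraries in which the site is not listed. On the left, in the libraries not used for the ranking, E2 (red) is above untreated (grey) at 7 of the 8 sites with both values, and on the right the sites of rank 3 to 5 have densities above 1000 in every library.

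The lower sites were of several kinds. The lowest ratio was at chr7:107108689-107109567, with 14.0 with Dex and 2.72 with both hormones (0.191-fold, 0.093 to 0.359) and no entry in the untreated or E2 list. A neighbouring site with the same pattern of listing, chr7:107158917-107159813, went from 16.7 to 5.22 (0.306-fold, 0.182 to 0.498). The Dex and Dex+E2 libraries were the only ones that listed them.

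Sites with their highest density with Dex included chr3:37070017-37070937. Its density was 6.89 untreated, 50.7 with Dex, 5.40 with E2 and 19.7 with both hormones (0.381-fold, 0.293 to 0.491). At chr19:27410819-27411781 it was 8.93 untreated, 51.9 with Dex and 21.8 with both hormones, with no entry with E2 (0.410-fold, 0.319 to 0.524). The site chr11:61091863-61092784 had 21.2 untreated, 35.02 with Dex and 13.2 with both hormones, again with none with E2 (0.367-fold, 0.266 to 0.502). With both hormones the first and second stayed above the untreated library as deposited, and the last was below it. The median was 23.97 untreated, over the 27288 shared sites listed there, and 12.02 with both hormones, over all shared sites. The last site was below the former median untreated and above the latter with both hormones. On these medians, taken over different sets, its order was thus the reverse of the deposited one.

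At other sites both libraries given estradiol were low. The site chr11:83914565-83915495 had 20.1 untreated, 24.5 with Dex, 6.60 with E2 and 7.49 with both hormones (0.299-fold, 0.195 to 0.447). At chr7:116719918-116720886 the values were 45.4, 26.7, 8.20 and 9.98 (0.366-fold, 0.252 to 0.523). In the libraries that the ranking did not use, E2 was below untreated at both as deposited. That order was the usual one, with a median deposited log2 ratio of E2 to untreated of −1.57 over sites in every list. Relative to the library medians, this log2 ratio was −0.04 at chr11:83914565-83915495, so E2 and untreated were close there. It was −0.90 at chr7:116719918-116720886.

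The remaining lower sites had extreme densities. At chr13:85266252-85267287 the density was 15878 untreated, 7501 with Dex, 3270 with E2 and 3413 with both hormones (0.445-fold, 0.436 to 0.454). The sites chr12:98299555-98300244 and chr1:24619396-24620156 went from 4687 to 2221 and from 2725 to 1322. All 6 shared sites with a density over 1000 in either library had a log2 ratio between −1.17 and −0.75, and 4 of them passed the 2-fold limit. Their narrow intervals reflect tag number alone, and the 3 named ones entered the list through them.

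Near the limit the difference between called and uncalled sites was within counting error. The called site chr11:101423493-101424200 had 11.8 with Dex and 24.05 with both hormones, with an interval of 1.41 to 2.87 for the fold. Just outside, chr6:126434733-126435574 had 16.7 and 34.0 (1.998-fold, 1.49 to 2.70). On the lower side chr2:102826882-102827724 was inside at 14.2 and 7.26, and chr12:81480228-81481502, at 79.8 and 40.8, was outside. A count at 2-fold therefore depends on sites that cannot be placed on either side.

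Some of the named regions lay near each other. Within 100 kb of the centre of chr12:16797067-16797819 the 4 lists held 25 merged sites, of which 17 were listed untreated, 14 with Dex, 8 with E2 and 16 with both hormones. The site itself and the gained region 25.8 kb before it were the only ones within 50 kb that were listed with E2. Between them, 1.83 kb before the centre, chr12:16794819-16796404 had 10.2 untreated, 28.9 with Dex and 25.6 with both hormones and was not listed with E2. A site denser with Dex than untreated and a site denser with E2 than untreated thus lay 1.83 kb apart, and both were listed in the Dex+E2 library.

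The densest site of this window, chr12:16857049-16858376, was in every list at 229.5 untreated, 100.2 with Dex, 91.0 with E2 and 158 with both hormones. Weak regions of Dex+E2 alone, chr12:16767038-16767565 at 10.7 and chr12:16760047-16760402 at 8.85, lay beyond the gained region.

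**Figure D4:**
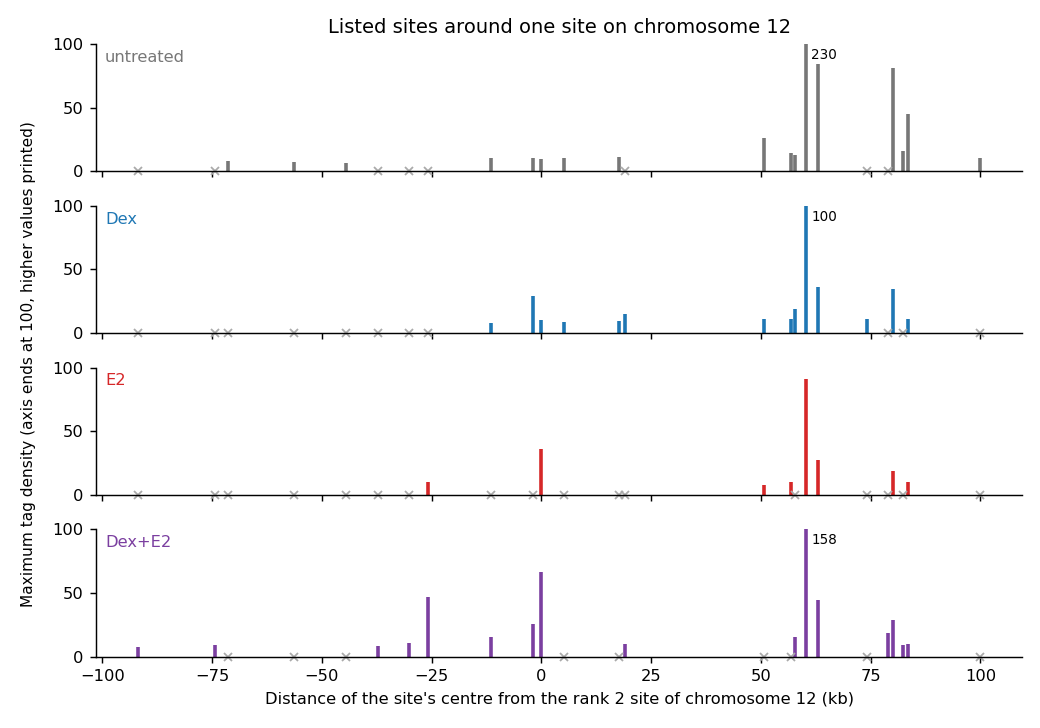
Maximum tag density in the 4 libraries (rows) at the 25 merged sites within 100 kb of chr12:16797067-16797819, against the distance of their centre from it in kb; grey crosses are sites not listed in that library, and the axis ends at 100 with the higher values printed. The bars at 0 and −25.8 kb are tallest in the Dex+E2 row, and the bar at −1.83 kb is present with Dex and with Dex+E2 and missing with E2.

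Over the genome, 85 of the 519 higher sites (16.4%, 13.4 to 19.8) had another higher site within 100 kb, where 9.93% of all shared sites had a higher site that near. For lower sites the values were 8.67% (6.07 to 12.2) and 5.03%. A dense gained region lay within 100 kb of 7.51% (5.55 to 10.1) of higher sites and 3.35% of all shared sites. Sites share neighbourhoods and are not independent, so these intervals are too narrow. The group with the most higher sites was chr11:117169107-117215045, with 4 in 45.9 kb, and chr5:125614660-125656197 held 2 higher sites and 2 dense gained regions in 41.5 kb.

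Higher and lower sites occurred on all 20 chromosomes. The share of higher sites was largest on chromosome 9 (41 of 1477, 2.78%) and smallest on chromosome X (4 of 707, 0.566%). The share of lower sites was largest on chromosome 17 (26 of 1353, 1.92%), followed by chromosome X (13 of 707, 1.84%). It was smallest on chromosome 4 (9 of 1832, 0.491%). Chromosome X also had the largest shares of gained (49.6%) and lost regions (55.8%), no dense gained region, and the lowest median density, 4.16 with Dex and 4.31 with both hormones. Chromosome 11 had the smallest shares, 31.9% gained and 32.7% lost, and the highest medians, 9.80 and 10.2.

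The E2 and untreated libraries, which took no part in choosing the higher and lower sites, showed a difference at the same sites. Of the 519 higher sites, 476 (91.7%, 89.0 to 93.8) were in the E2 list, against 72.1% of all shared sites, and 445 (85.7%, 82.5 to 88.5) were in the untreated list, against 92.0%. Of the 323 lower sites, 147 (45.5%, 40.2 to 51.0) were in the E2 list and 258 (79.9%, 75.2 to 83.9) in the untreated list. A site in the untreated and not in the E2 list was found for 13 higher (2.50%) and 113 lower sites (34.98%), against 21.2% overall. Listing also rose with density, in which the groups differed. Higher sites had a median density of 9.06 with Dex and 23.6 with both hormones, and lower sites 15.9 and 7.26. Of shared Dex+E2 regions, 97.1% at 20 or more and 45.4% at 5 to 10 were in the E2 list. Of shared Dex regions, 49.7% at 5 to 10 and 79.9% at 10 to 20 were. The part of density in these shares was not tested.

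Where a site was in all 4 lists, the log2 ratio of E2 to untreated could be taken, relative to the medians of those libraries over 20997 such sites. Its median was 1.02 (quartiles 0.56 and 1.56) at 432 higher sites, −0.29 (−0.56 and 0.09) at 145 lower sites and 0.00 (−0.26 and 0.35) over all. The 13 higher and 113 lower sites listed untreated and not with E2 have no ratio, so low E2 values are missing from these figures. The 44 higher and 2 lower sites listed with E2 and not untreated have none either. E2 was at least 2-fold above untreated at 220 of the 432 higher sites (50.9%) and at 5 of the 145 lower sites (3.45%), where 7.91% of all sites passed. It was at least 2-fold below untreated at 0 of the 432 and at 6 of the 145 (4.14%), where 0.976% of all sites passed. By counting error alone, 0 of 432 allows a share of up to 0.694% among higher sites in all 4 lists. Sites are not independent, and higher sites without an E2 entry are outside this limit. All 27 sites higher by 4-fold were in the E2 list, and the 21 of them with an untreated entry were each at least 2-fold higher with E2 relative to the medians. As deposited, E2 was above untreated at 20 of the 21, with a median log2 ratio of 0.89.

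The scale matters for these ratios, because the E2 library had lower deposited densities than the untreated one at most sites. As deposited, the median log2 ratio of E2 to untreated was −0.55 at the higher sites, −1.86 at the lower sites and −1.57 over all. E2 exceeded untreated as deposited at 103 of the 432 higher sites (23.8%), at 1 of the 145 lower sites (0.690%) and at 3.33% of all sites. The order of the 3 groups was the same on either scale, while the sign for the higher sites was not.

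**Figure D5:**
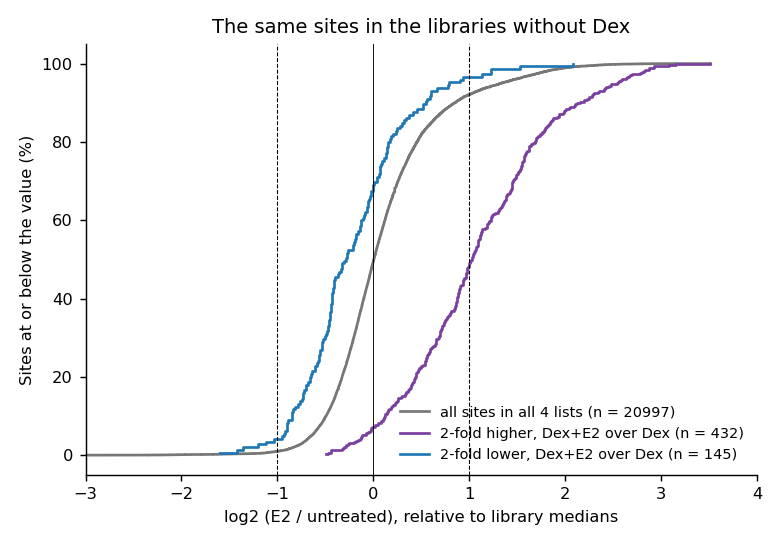
Cumulative share of sites (%) by their log2 ratio of E2 to untreated, relative to the library medians, for all sites in all 4 lists (grey, n = 20997) and for those at least 2-fold higher (purple, n = 432) or lower (blue, n = 145) with both hormones than with Dex; dashed lines mark 2-fold. The purple curve lies to the right with a median of 1.02, and the blue curve lies to the left with a median of −0.29. Sites missing from the E2 or the untreated list have no ratio and are not drawn.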

How the data were processed

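DNase-seq regions of 4 libraries of 7438 cells were used, 1 per condition, grouped by the treatment in the labels. Genome build mm9 and CASAVA 1.8 are named, without a role, per the submitters' processing notes. Which aligner and region caller were applied is not given in the sources used here. As named in the file headers, the authors deposited for each region a maximum and an average tag density (signal), a Z score and a p-value, each list called in its own library. The p-values were read and not used. All maximum densities were whole multiples of 1 step per library, within 0.02 tags, and the step was taken as the value of 1 tag. Read totals are not stated, and the labels' protocols mention sonicated nuclei without describing the nuclease step.

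Overlap was at least 1 bp. Shared sites joined overlapping Dex and Dex+E2 regions, with the highest maximum density and the width-weighted average density in each library. Ratios were divided by each library's median over these sites and called at 2-fold. Other libraries were looked up by overlap. The regions named were the 10 densest gained, the 5 densest lost, the 10 higher and 10 lower sites that passed in both measures with the counting bound farthest from 1, and up to 3 sites nearest the limit on each side, of which 1 each is printed. The comparison and these rules were chosen with earlier results of these data known. The functions were tested on simulated data. Alternatives covered overlap, list length, joining of regions, chromosome X, density measure, scaling and limit. Software was Python 3.11.15 with SciPy 1.17.1, NumPy 2.4.6, pandas 2.3.3 and, for plots, Matplotlib 3.10.9. Genes, motifs and sequences were not analysed here, since no genome of this build was used.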

Additional observations from a re-analysis of the deposited data

Results flagged for a closer look

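At 5 sites the ratio of Dex+E2 to Dex and the ratio of E2 to untreated passed 2-fold in opposite directions, lower in the former and higher in the latter, and no site showed the reverse. The difference between the ratios was not tested, since each comes from a pair of single libraries. The site chr3:37070017-37070937 had log2 values of −1.39 and 1.22, with densities of 50.7 after Dex and 19.7 after Dex+E2. The other sites were weak, with a maximum density of at most 10.5 in any library. Their log2 values for Dex+E2 over Dex and for E2 over untreated were −1.01 and 1.52 at chr1:84982566-84983218, and −1.06 and 1.22 at chr2:69521787-69522976. They were −1.05 and 1.13 at chr6:38084614-38085251, and −1.04 and 2.08 at chr11:101601337-101601825. On the deposited scale E2 was below untreated at 4 of the 5, chr11:101601337-101601825 being the exception. The raised E2 to untreated ratio at chr1:84982566-84983218 was not particular to that site. Shared sites close to it in genome order had log2 values of 2.22, 1.44 and 1.31. Their log2 values for Dex+E2 over Dex were 0.64, 0.24 and 0.20.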

How the results depend on the processing

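Counts of gained and lost regions stayed within 1.5 times of 19103 and 21167 with 50% overlap, lists of equal length, joining within 150 bp, chromosome X left out and the 2 stretches left out. Only the denser 50% of each list moved them, to 2875 gained and 2531 lost, where fewer regions enter and dense regions overlap more often. Without the stretches, lost regions at a density of 20 or more went from 1 to 0. By average density 788 sites were higher and 541 lower by 2-fold. Limits of 1.5-fold and 4-fold, added after the data were examined, gave 2280 and 27 higher and 2443 and 1 lower sites. Other scalings and filters gave 460 to 597 higher and 259 to 399 lower sites. The median log2 ratio of E2 to untreated at the higher sites was 0.89 by average density and −0.55 as deposited, where the median over all sites was −1.57. All 60 values of the 20 named shared sites under 3 alternatives kept their direction. No paired analysis was possible because each condition has 1 library. Depth limits the weak regions: a site with a median summit rests on 32 to 36 tags, and a region missing from a list may lie just below the threshold.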
